A study of Picea abies with 36 samples.

Results

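Among the 70736 genes counted in the middle hypocotyl of Norway spruce (Picea abies), 148 were raised above mock after 5, 10 and 15 days both by the auxin indole-3-acetic acid (IAA) and by IAA given together with the cytokinin 6-benzylaminopurine (BAP), while BAP alone left them near the mock level. They were chosen on CPM (counts of a gene per 1000000 counts of the library). For each hormone treatment and day, the mean CPM of 3 libraries plus 1 was divided by the mean CPM of the mock plus 1, and the log2 of this ratio had to stay within 0.5 of 0 for BAP and to reach 0.7 for IAA and for BAP+IAA, on every day. A limit of 150 genes in order of the smallest of the 6 IAA and BAP+IAA values cut none, because 148 genes passed. Contrasts of each treatment with mock therefore chose the genes and are given below as a description only, with calls that follow from the rule. The rule set the same limits for IAA and BAP+IAA and none on the difference between them, and that difference was tested. Changes between day 5 and day 15 in the mock and in the IAA and BAP+IAA responses were tested too. Those responses are the contrasts with mock that chose the genes, although the rule set the same limit for every day. The limit of the rule on BAP left out 936 other genes that reached 0.7 under IAA and BAP+IAA, with BAP upward in 885 of them. The balance of signs among the members is therefore not independent of the rule, which used the same libraries.

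RNA was taken from wild-type seedlings of the genotype FP-518 TreO G7 Söregärde, which were 2 weeks old when a lanolin paste was put around the middle of the hypocotyl and covered with foil. The paste held 50 mM IAA, 135 mM BAP, both hormones or, for the mock, neither, and 3 libraries of several pooled plants were made for each of the 4 treatments on each of the 3 days, 36 in all. The labels give the BAP dose in mM, whereas a legend of the study gives µM, which leaves the dose uncertain. The study describes the replicates as biologically independent. In these bulk samples, fewer cells of a type and less RNA per cell cannot be told apart.

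Auxin enters the nucleus and joins TIR1-type receptors to Aux/IAA repressors, which are then degraded, so that auxin response factors can act. In flowering plants this pathway quickly raises genes that limit the signal again, among them the Aux/IAA repressors and the GH3 enzymes that conjugate IAA to amino acids, as well as LOB domain transcription factors and wall-loosening proteins such as expansins. Cytokinin is read by histidine kinase receptors and is known for promoting cell division and for opposing auxin in vascular tissue and root formation.

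Libraries held between 13188942 and 23110495 counts, and 38732 genes passed the filter on low counts, all 148 members included. The members together took between 0.217% and 0.285% of all counts in the mock libraries and between 0.191% and 0.336% in the BAP libraries. Under IAA their share lay between 0.851% and 0.897% on day 5, between 0.769% and 0.854% on day 10 and between 0.655% and 0.721% on day 15. With BAP added it lay between 0.636% and 0.753%, between 0.579% and 0.713% and between 0.577% and 0.688% on the same days. The BAP+IAA libraries thus lay below the IAA libraries on days 5 and 10 without overlap, and overlapped them on day 15. Among the 3 BAP+IAA libraries of a day, replicate 3 was the highest for 80 of the 148 members on day 5, replicate 2 for 84 on day 10 and replicate 3 for 75 on day 15, with median coefficients of variation of 25.9%, 24.2% and 23.7%. Replicate 1 was the lowest for 82 on day 5, and in the BAP group of day 10 for 84 of 133 members with 3 different values. All 4 markers used to check the tissue, of phloem, xylem and dividing cells, had counts in every group.

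On the scale of the rule, log2 of the ratio of mean CPM plus 1, the median member stood at 1.91 under IAA on day 5, 1.59 on day 10 and 1.56 on day 15. Under BAP+IAA the medians were 1.50, 1.41 and 1.37. Under BAP alone they were -0.02, 0.14 and 0.15. In an edgeR quasi-likelihood fit over all genes, a gene was called when its adjusted P was under 0.05 and its log2 fold change exceeded 1 in either direction. By this criterion 144, 136 and 123 members were higher than mock under IAA on days 5, 10 and 15, where 11.3%, 10.1% and 9.86% of all genes tested were. Under BAP+IAA, 137, 134 and 127 members were called higher, against 10.2%, 10.0% and 11.4% of all genes, counts that follow from the rule. BAP alone gave calls for 1, 3 and 2 members on days 5, 10 and 15, where 8.85%, 12.9% and 15.2% of all genes were called. The calls of days 10 and 15 were higher under BAP in genes with almost no mock counts, for example MA_10436212g0010 with a mean of 0.0445 CPM in mock and 0.382 CPM under BAP on day 10. That of day 5 was lower, in MA_10561g0010 with 0.398 CPM in mock and 0.0217 CPM under BAP. The added 1 of the rule makes differences at such levels small.

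**Figure D1:**
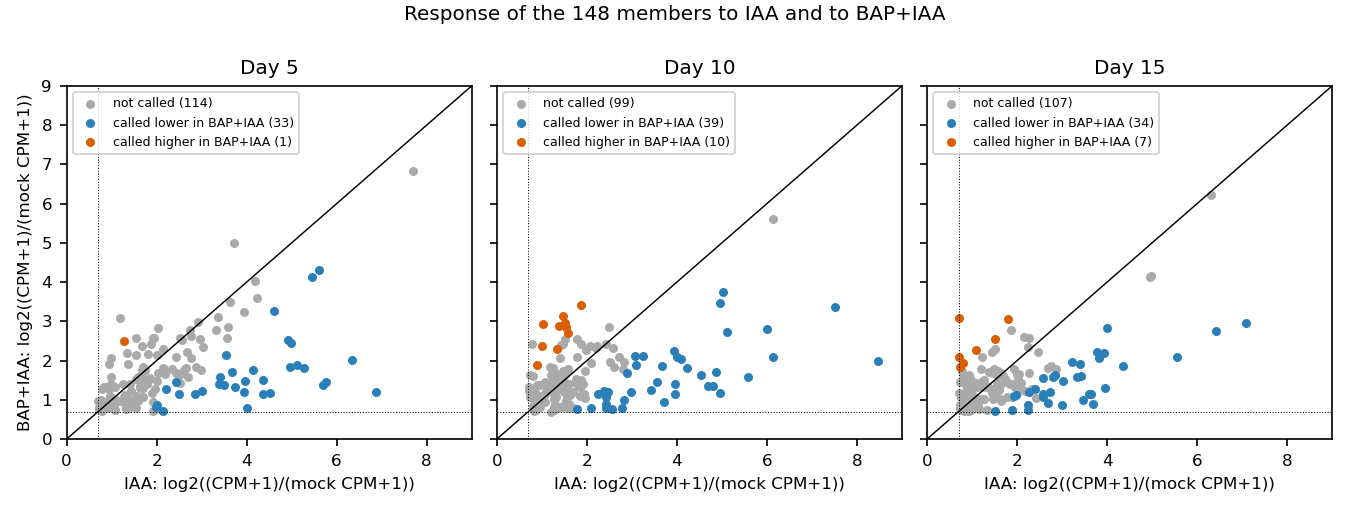
Each point is 1 of the 148 members, with its IAA value on the x axis and its BAP+IAA value on the y axis, both log2 of mean CPM plus 1 over mock mean CPM plus 1, for each day; dotted lines mark the limit of 0.7 and the solid line equal values. Points far to the right lie mostly below the solid line, and the colours show the 33, 39 and 34 members called lower and the 1, 10 and 7 called higher in BAP+IAA than in IAA.

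The name given to such genes, kept under added cytokinin, held in the sense of the rule, but not every member kept the size of its response. The BAP+IAA value was a median of 79.6% of the IAA value on day 5, 84.7% on day 10 and 84.1% on day 15, both on the log2 scale of the rule. It was under 50% for 28, 28 and 22 members and over 100% for 39, 59 and 57. At least 75% was kept on every day by 54 members, and under 50% on every day by 14. By the log2 fold changes of the edgeR fit, the medians were 82.8%, 86.1% and 86.7%. Under 50% were then 16, 16 and 10 members, and over 100% were 36, 55 and 53.

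In the direct comparison of BAP+IAA with IAA, which used the libraries that chose the members, more members were lower than higher. On day 5, 33 members (22.3%) were called lower and 1 (0.676%) higher, where 3.46% and 3.06% of all genes tested were. On day 10 the counts were 39 lower (26.4%) and 10 higher (6.76%), beside 9.96% and 5.54% of all genes. On day 15 they were 34 lower (23.0%) and 7 higher (4.73%), beside 10.5% and 5.94%. The median log2 difference of the members was -0.48 on day 5, -0.33 on day 10 and -0.29 on day 15, and that of all genes was 0.01 on each day. The sign was below 0 on all 3 days for 68 members (45.9%) and above 0 on all 3 days for 13 (8.78%), while 22.8% and 24.3% of all genes were so. The 3 BAP+IAA libraries lay below the 3 IAA libraries without overlap for 67 members on day 5, 51 on day 10 and 47 on day 15, that is 45.3%, 34.5% and 31.8%, where 13.8%, 19.1% and 19.0% of all genes did. Called lower on all 3 days were 21 members (14.2%, beside 2.16% of all genes), and 0 members were called higher on all 3 days (1.25% of all genes). With edgeR, 83 members (56.1%) were called on no day, beside 77.4% of all genes.

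The other 936 genes that reached 0.7 under both IAA and BAP+IAA on every day differ from the members in that BAP alone reached 0.5 in absolute value on at least 1 day, upward in 885 of them. Their median log2 difference between BAP+IAA and IAA was 0.13 on day 5, 0.07 on day 10 and 0.27 on day 15. Called lower were 10.3%, 17.4% and 13.8% of them, and called higher 9.94%, 16.6% and 21.4%. Since the rule divided both sets by their BAP values, this is a description of the sets and was not tested.

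**Figure D2:**
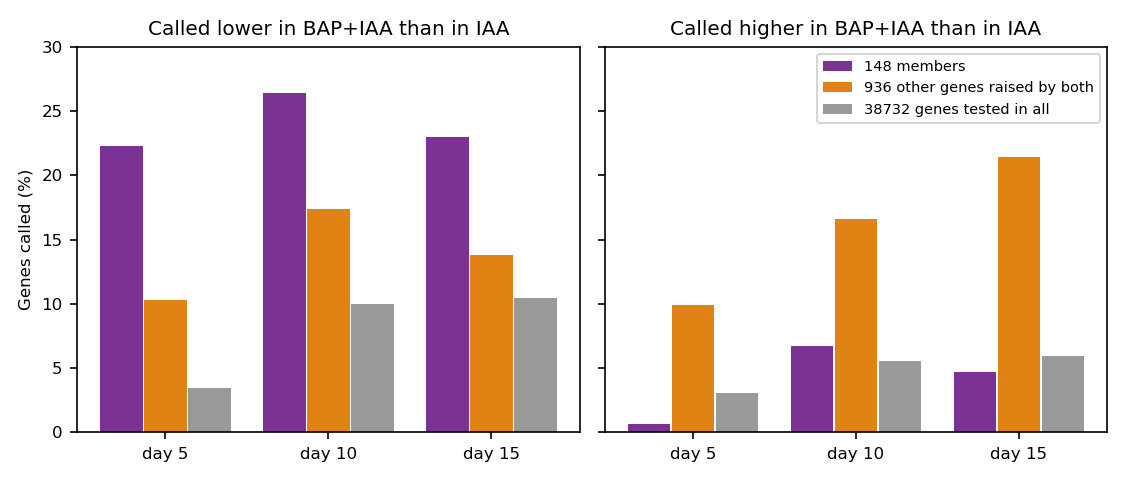
Bars give the percent of genes called lower (left) or higher (right) in BAP+IAA than in IAA on each day, for the 148 members, the 936 other genes raised by both treatments and all 38732 genes tested. The bars of the members for lower genes stand between 22.3% and 26.4%, and those of all genes between 3.46% and 10.5%.

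Of the 4 tissue markers, PaVND4-like (MA_6777g0010), related to a regulator of xylem vessel formation, was called lower in BAP+IAA than in IAA on days 10 and 15, with a log2 difference of -1.43 and -1.90, and the other 3 were called on no day. Its IAA libraries lay between 35.7 and 43.2 CPM on day 10 and its BAP+IAA libraries between 11.3 and 17.7 CPM. The summed CPM of the 4 markers was 136 to 141, 118 to 144 and 96.2 to 106 under IAA on days 5, 10 and 15 and 137 to 153, 115 to 139 and 87.9 to 92.3 under BAP+IAA. PaCDKB2;2-like made up most of this sum, with 61.0 to 64.2 CPM under IAA and 69.5 to 76.6 CPM under BAP+IAA on day 15. The sum therefore does not show the share of each cell type. The part of the cell types in the members' values was not tested.

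Of the 148 members, 58 carry an annotation in the tables of the study and 90 do not. The first by the rule was MA_10330250g0010, an indole-3-acetic acid-amido synthetase, the GH3 type of enzyme that attaches amino acids to IAA and so removes it from the active pool. It was at 0, 0 and 0.322 CPM in mock on day 5 and between 0 and 0.496 CPM in all mock and BAP libraries of the series. Under IAA it stood at 201, 204 and 276 CPM on day 5, at 69, 101 and 105 on day 10 and at 65.8, 72.5 and 156 on day 15. Under BAP+IAA it stood at 33.2, 83 and 258 CPM on day 5, at 38.1, 138 and 14.2 on day 10 and at 141, 85.9 and 49.2 on day 15. The IAA and BAP+IAA libraries overlapped on every day, and the BAP+IAA libraries of day 10 differed among themselves by far more than the IAA ones. The log2 difference was -0.89 ± 0.59 (SE, n = 3 and 3) on day 5 with an adjusted P of 0.378 in edgeR, -0.59 ± 0.59 on day 10 and -0.15 ± 0.59 on day 15, none of them called.

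The other IAA-modifying member was lowered. MA_13253g0010, annotated as indole-3-acetate O-methyltransferase 1, which makes the methyl ester of IAA, stood at 27.3, 29.1 and 34 CPM under IAA on day 5 and at 4.24, 2.59 and 7.85 CPM under BAP+IAA. On day 15 the 3 IAA libraries, at 6.46, 3.1 and 4.13 CPM, overlapped the BAP+IAA libraries, at 2.88, 3.2 and 4.9 CPM. The log2 difference was -2.64 ± 0.38 on day 5 and -1.98 ± 0.38 on day 10, both called in edgeR (adjusted P 1.7e-05 and 2.0e-04), and -0.37 ± 0.39 on day 15. No mock library of day 15 had a count, so the level under IAA was at least 72.9-fold higher, against a floor of 3 counts over the mock group, and that with BAP added at least 58.5-fold higher.

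The auxin signalling members had high mock levels and smaller responses. MA_18755g0010, an IAA13-like Aux/IAA repressor, lay between 53.5 and 67.4 CPM in mock, at 185, 189 and 183 CPM under IAA on day 5 and at 120, 132 and 156 CPM under BAP+IAA. On day 15 it stood at 116, 147 and 182 CPM under IAA and at 142, 175 and 211 under BAP+IAA, which overlapped, and no day gave a call. MA_10431093g0030, annotated as IAA8, stood at 88.8, 91.6 and 105 CPM under IAA on day 5 and at 55.1, 59.9 and 73.6 under BAP+IAA, without overlap. Its log2 difference of -0.63 ± 0.13 had an adjusted P of 0.0012 in edgeR but is under the fold threshold, and on days 10 and 15 it was 0.08 and 0.05. MA_109804g0010, whose annotation reads auxin down-regulated, was raised here, with 28.4 to 45.5 CPM in mock and 64.9 to 91.8 CPM under IAA. Its log2 differences between BAP+IAA and IAA were 0.22, -0.19 and 0.18.

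The LOB domain member was called lower in BAP+IAA than in IAA on each day. LOB domain proteins are plant transcription factors that act at organ boundaries and, in Arabidopsis, in the start of lateral roots. MA_290245g0010 (LOB domain-containing 6) stood at 15.8, 18.4 and 17.4 CPM under IAA on day 5, at 32, 34 and 28.8 on day 10 and at 34.5, 29.2 and 25.4 on day 15. The BAP+IAA libraries stood at 3.26, 3.43 and 2.96 CPM, at 6.96, 3.81 and 4.48 and at 8.58, 5.93 and 8.72, and in mock between 0.296 and 2.62 CPM. All BAP+IAA libraries lay above all mock libraries and below all IAA libraries of their day. The log2 difference from IAA was -2.46 ± 0.33, -2.70 ± 0.32 and -1.99 ± 0.31 on the 3 days (adjusted P 3.7e-06, 1.4e-07 and 1.1e-05, edgeR), and it was 5.49-fold, 6.51-fold and 3.97-fold lower.

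**Figure D3:**
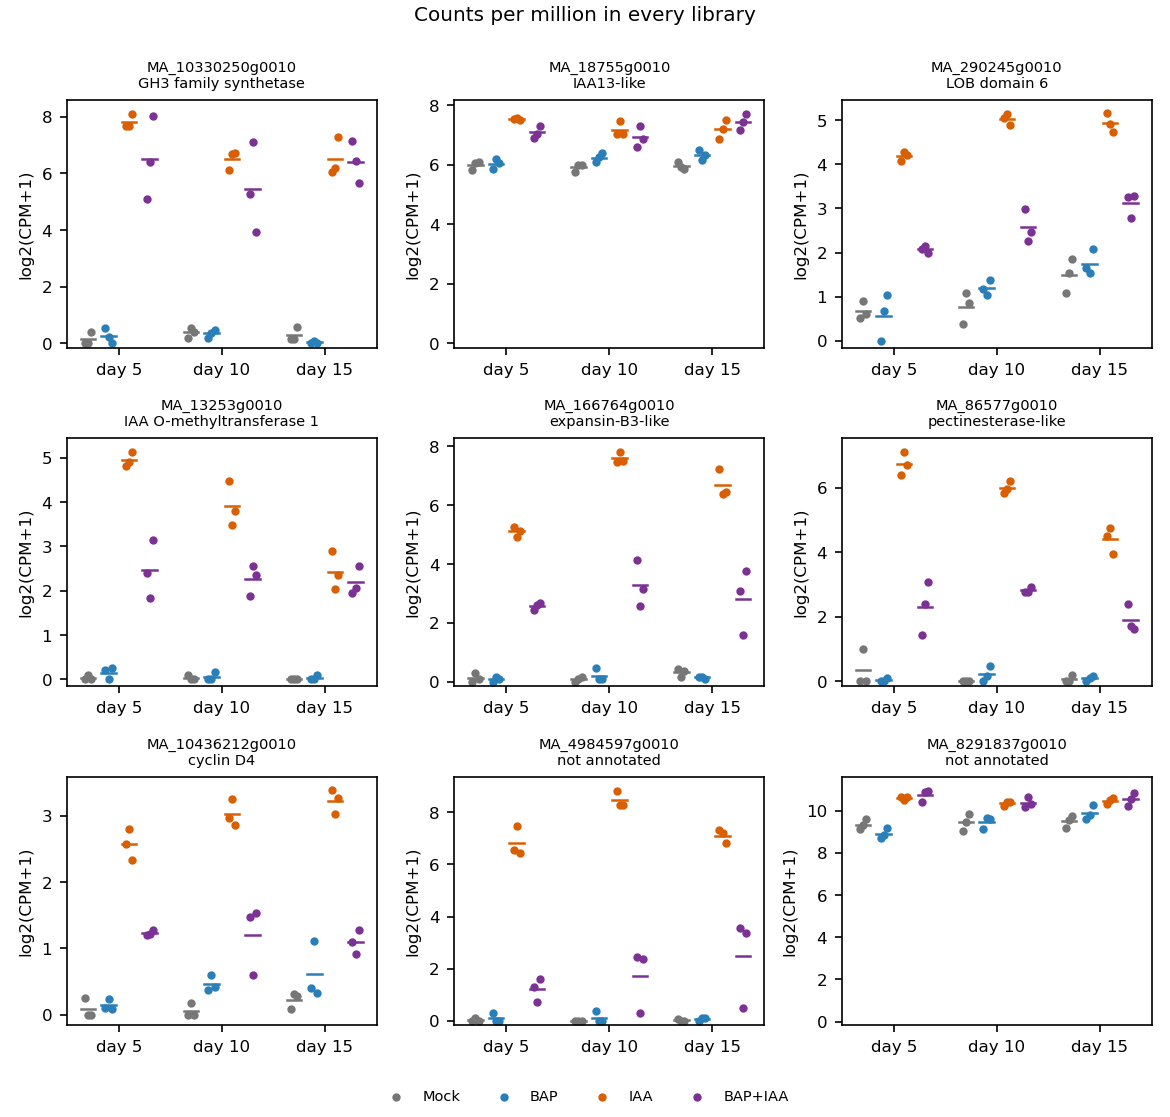
Every library is shown as a point, log2 of CPM plus 1 on the y axis, for 9 members, with the treatments side by side within each day and a line at the mean of the 3 log2 values. In the LOB domain, expansin-B3-like, pectinesterase-like, cyclin D4 and MA_4984597g0010 panels every BAP+IAA point lies below every IAA point of its day, whereas the points overlap for the GH3 family synthetase on each day.

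Cell wall members differed widely among themselves. Expansins loosen the bonds between wall polymers, and MA_166764g0010, an expansin-B3-like gene, reached 37.2, 29.6 and 34.2 CPM under IAA on day 5, 177, 223 and 179 on day 10 and 151, 81.9 and 86.5 on day 15. With BAP added it reached 4.37, 5.11 and 5.34 CPM, 16.5, 4.96 and 7.99 CPM and 7.56, 2.04 and 12.7 CPM, while mock libraries lay between 0 and 0.351 CPM. It was 6.96-fold, 20.7-fold and 14.7-fold lower than under IAA, a log2 difference of -3.68 ± 0.24 over the 3 days (adjusted P 1.3e-12, edgeR). MA_86577g0010 is pectinesterase-like, a type of enzyme that removes methyl groups from wall pectin and so alters its stiffness. It stood at 82.5, 136 and 104 CPM under IAA on day 5, at 56.1, 60.5 and 72 on day 10 and at 21.5, 25.7 and 14.4 on day 15. BAP+IAA brought it to 1.7, 4.21 and 7.51 CPM, at 5.77, 5.77 and 6.55 and at 4.2, 2.25 and 2.04, and was called lower on each day, with log2 differences of -4.59, -3.43 and -2.91. On day 10 no mock library had a count, which makes the level at least 991-fold higher under IAA and at least 95.1-fold higher under BAP+IAA.

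Other wall genes took the opposite direction on some days. MA_19253g0020, an alpha-expansin, stood at 37.1, 24.8 and 38.2 CPM under IAA and 32.5, 22.3 and 34.2 CPM under BAP+IAA on day 5, where the groups overlapped. On day 10 it stood at 4.23, 2.47 and 2.06 CPM under IAA and 10.1, 12.8 and 8.05 CPM under BAP+IAA, a log2 difference of 1.77 ± 0.43 (adjusted P 0.0019, edgeR). MA_2008916g0010, annotated as endoglucanase 17 and on the study's list of beta-1,4-glucanases, which cut cellulose-like chains, had no count in any mock library. Its IAA libraries lay between 0.209 and 1.59 CPM on all days, and its BAP+IAA libraries of day 10 stood at 1.92, 10.5 and 7.3 CPM, a log2 difference of 2.61 ± 0.78 (adjusted P 0.016). MA_11177g0010, a probable xyloglucan endotransglucosylase hydrolase, which cuts and rejoins the xyloglucan chains between cellulose fibrils, was 26.6, 17 and 21.7 CPM under IAA on day 5 and 4.37, 5.17 and 4.84 CPM under BAP+IAA, a log2 difference of -2.22 ± 0.39. On days 10 and 15 its log2 differences were 0.48 and 0.88, not called.

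Further members act on wall and sugar metabolism. The cell wall invertase MA_273264g0010, which splits sucrose outside the cell, had 16.1, 10.2 and 15.7 CPM under IAA on day 10 and 0.666, 2.37 and 0.575 CPM under BAP+IAA, a log2 difference of -3.57 ± 0.62, and was not called on days 5 and 15. GDP-mannose 3,5-epimerase 2 (MA_10426186g0010), an enzyme of ascorbate and wall sugar synthesis, ran from 299 to 344 CPM under IAA and from 184 to 207 CPM under BAP+IAA on day 5. Its log2 differences of -0.76, -0.68 and -0.90 had adjusted P values of 0.045, 0.04 and 0.0073 in edgeR and lay under the fold threshold on each day. The aldose 1-epimerase MA_15943g0010, which interconverts the forms of free sugars, had 117, 151 and 121 CPM under IAA on day 5, 411, 242 and 329 on day 10 and 128, 142 and 139 on day 15. In BAP+IAA libraries it had 22.7, 19.5 and 28.4, then 37.3, 25.4 and 25, then 31.9, 19.8 and 19.5 CPM, all above the mock range of 5.81 to 16.5 CPM. It was called lower on each day and by 7.32-fold over the 3 days.

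Both cell cycle members were cyclins, the partners that switch on cyclin-dependent kinases. MA_10436212g0010 (cyclin D4, of a class that acts at entry into the cycle) stood at 4.94, 5.97 and 4.05 CPM under IAA on day 5, at 6.79, 8.56 and 6.3 on day 10 and at 9.44, 7.15 and 8.64 on day 15. Under BAP+IAA it stayed between 0.519 and 1.9 CPM in all 9 libraries, and in mock it lay between 0 and 0.24 CPM. It was called lower on each day, with log2 differences of -1.91 ± 0.43, -2.43 ± 0.43 and -2.91 ± 0.44. MA_10289079g0010 (cyclin-U2-1) was called on day 15, where 6.13, 6.48 and 12.4 CPM under IAA stood against 2.76, 1.64 and 4.36 CPM under BAP+IAA (log2 difference -1.56 ± 0.56, adjusted P 0.037, edgeR). On days 5 and 10 its differences of -0.49 and 0.11 were not called. The marker of dividing cells, PaCDKB2;2-like, was not called between BAP+IAA and IAA on any day, with 94.3 to 103 CPM under IAA and 103 to 116 CPM under BAP+IAA on day 5.

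None of the 5 other transcription and chromatin members was called between BAP+IAA and IAA on any day, while 77.4% of all genes were called on no day. MA_103616g0010, a WRKY factor, a family best known from defence, ran from 61.2 to 71.2 CPM under IAA and from 88.9 to 127 CPM under BAP+IAA on day 5, without overlap, and its log2 difference of 0.57 ± 0.30 had an adjusted P of 0.247 in edgeR. MA_120049g0020, an R2R3-MYB factor, stood at 11.8, 12.2 and 15.1 CPM under IAA and at 6.85, 9.56 and 13.9 CPM under BAP+IAA on day 5, which overlapped. MA_89624g0010, annotated as MYB44, is a factor known in Arabidopsis for stress responses. On day 15 it stood at 2.93, 2.03 and 3.03 CPM under IAA and 6.18, 6.68 and 4.77 CPM under BAP+IAA. These did not overlap, and the log2 difference was 1.09 ± 0.64. BAP alone also gave a call above mock for MYB44 on day 15, with a mean of 0.323 CPM (log2 5.35, adjusted P 0.0409, edgeR). The AT-hook genes MA_103310g0010 and MA_2613706g0010, of a family of DNA-binding nuclear proteins, had log2 differences between -0.06 and 0.35.

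Of the 3 jasmonate-related members 1 was called, lower in BAP+IAA than in IAA, where 77.4% of all genes were called on no day. TIFY 10a (MA_10229741g0010) belongs to the family of JAZ proteins, the repressors that jasmonate removes. It stood at 62.1, 35.3 and 45.1 CPM under IAA and 15.1, 18.3 and 22.6 CPM under BAP+IAA on day 5, where no mock library had a count. The difference was called on day 5 (log2 -1.38 ± 0.38) and day 10 (-1.61 ± 0.38) and had an adjusted P of 0.078 in edgeR on day 15 (-0.90 ± 0.38). The 12-oxophytodienoate reductase genes belong to a family with a member that acts in jasmonate synthesis in Arabidopsis. MA_10435051g0010 stood at 67, 30.8 and 39.3 CPM under IAA and 55.6, 93.4 and 192 CPM under BAP+IAA on day 5, and MA_138293g0010 at 25, 13.8 and 16 CPM and 3.78, 12.2 and 33.2 CPM. Both overlapped between treatments on that day, and neither was called on any day.

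The largest annotated group was 18 genes of conjugation, export and redox reactions, with median log2 differences of -0.33 on day 5, 0.09 on day 10 and -0.13 on day 15. Called lower were 3, 2 and 3 of them on the 3 days, and 1 was called higher, on day 15, while 3.46%, 9.96% and 10.5% of all genes were lower on the same days and 5.94% higher on day 15. MA_10433477g0020, similar to UDP-glycosyltransferase 74B1, one of the enzymes that attach sugars to small molecules, had 104, 89.2 and 92.1 CPM under IAA and 78, 68.2 and 111 CPM under BAP+IAA on day 5, and log2 differences of -0.18, 0.52 and 0.41. MA_114301g0010, a DETOXIFICATION 41-like transporter of the MATE family, which exports small molecules, had 153, 141 and 169 CPM under IAA and 209, 133 and 166 CPM under BAP+IAA, beside 73 to 83.3 CPM in mock on that day. In contrast MA_158309g0010, a DETOXIFICATION 27-like member of the same family, had 12.2, 30.5 and 25.7 CPM under IAA and 1.24, 3.49 and 2.17 CPM under BAP+IAA, and was called lower on each day, by 7.64-fold over the 3 days. MA_1857g0010, annotated as retinol dehydrogenase 12-like, a short-chain dehydrogenase, fell furthest in this group on day 5, from 52.3, 68.2 and 69.2 CPM under IAA to 1.04, 0.902 and 4.64 CPM under BAP+IAA, a log2 difference of -4.82 ± 0.45 (adjusted P 1.9e-08, edgeR). The difference of this gene was -2.61 on day 10 and -1.79 on day 15, both called. BAP alone also stood below mock, with log2 values of -2.27, -1.81 and -2.05 on the 3 days, not called. Over the 3 days that difference was called (-2.04, adjusted P 0.036, edgeR), at a mock mean of only 0.234 CPM on day 5.

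A few libraries set the values of some low genes in this group. MA_195838g0010, UDP-glycosyltransferase 74G1-like, stood at 0.074, 13.2 and 0.172 CPM in the BAP+IAA libraries of day 10, so that its log2 difference of 2.54 ± 1.16 rested on replicate 2 and was not called. Glutathione peroxidase MA_10430027g0010, which reduces peroxides, was 40.5, 32.5 and 46 CPM under IAA and 21.4, 14 and 20.1 CPM under BAP+IAA on day 15, a log2 difference of -1.15 ± 0.23 (adjusted P 2.3e-04, edgeR). On day 5 it had 15.4, 16.1 and 16.5 CPM under IAA and 13.8, 20 and 31.2 CPM under BAP+IAA, which overlapped.

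A pair of genes for choline kinase, an enzyme that starts the synthesis of the membrane lipid phosphatidylcholine, was called higher with BAP added on day 10 alone, and not in the average of days. MA_241801g0010 had 12.9, 11.5 and 15.6 CPM under IAA and 32.2, 35.7 and 35.5 CPM under BAP+IAA on day 10, a log2 difference of 1.31 ± 0.23 (adjusted P 4.2e-05, edgeR). MA_134492g0010 had 12.8, 12.1 and 13.1 CPM and 36.2, 36.1 and 36 CPM, a log2 difference of 1.46 ± 0.32 (adjusted P 7.2e-04). On days 5 and 15 the log2 differences were 0.53 and 0.78 for MA_241801g0010 and 0.70 and 0.76 for MA_134492g0010, not called. The ratio of their counts stayed between 0.797 and 1.48 in the 18 libraries with IAA. How reads with several alignments were counted is not given in the sources used here, so the values of this pair may share reads and are uncertain as independent measurements. Among 9 members with other annotations, MA_119865g0010, described as a cAMP-regulated phosphoprotein, fell from 80, 92.4 and 91.2 CPM under IAA to 5.7, 5.37 and 5 CPM under BAP+IAA on day 10, a log2 difference of -4.09 ± 0.23, and was called lower on each day.

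The 90 members without annotation had median log2 differences of -0.57 on day 5, -0.51 on day 10 and -0.34 on day 15, with 21, 25 and 21 called lower and 1, 6 and 6 called higher. Of all genes, 3.46%, 9.96% and 10.5% were called lower and 3.06%, 5.54% and 5.94% higher, so that the higher counts of days 10 and 15 were near those shares. MA_4984597g0010 lay furthest below 0 among all members. It had 94.1, 176 and 85.9 CPM under IAA on day 5, 453, 308 and 309 on day 10 and 159, 145 and 111 on day 15. Under BAP+IAA it had 1.44, 0.662 and 2.03 CPM, then 4.44, 0.231 and 4.2 CPM, then 10.9, 0.409 and 9.46 CPM, and it was 86.2-fold, 128-fold and 20.5-fold lower (log2 -6.43 ± 0.72, -7.00 ± 0.70 and -4.36 ± 0.62, edgeR adjusted P 7.0e-07, 3.2e-08 and 5.9e-06). BAP+IAA was still at least 46.6-fold above mock on day 10, where mock had no count. Replicate 2 was the lowest of its BAP+IAA libraries on every day.

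MA_64144g0010 and MA_94800g0010 followed. The former had 54.6, 61.8 and 52.1 CPM under IAA and 0.783, 3.25 and 1.53 CPM under BAP+IAA on day 5, and a log2 difference over the 3 days of -4.21 ± 0.35. The latter had 116, 52.5 and 86.6 CPM under IAA and 5.33, 3.35 and 4.02 CPM under BAP+IAA on day 10, and a log2 difference over the 3 days of -4.04 ± 0.23. Both were called lower on each day.

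In the average of the 3 days, 38 members (25.7%) were called lower and 4 (2.7%) higher, beside 9.08% and 5.88% of all genes. With no demand on the fold, 67 were lower and 11 higher at an adjusted P under 0.05 (edgeR), beside 19.9% and 19.3% of all genes. The 4 higher ones were endoglucanase 17 and 3 genes without annotation, MA_5982388g0010, MA_792493g0010 and MA_78766g0010. Under BAP alone on day 15, MA_5982388g0010 was called higher than mock, with a mean of 0.257 CPM (log2 5.03, adjusted P 0.0257, edgeR). Endoglucanase 17 was at log2 5.52 on that day and not called (adjusted P 0.0503, edgeR). MA_792493g0010 and MA_78766g0010 were called under BAP alone on no day. The part of BAP alone in these rises was not tested. MA_5982388g0010 had no count in mock and had 1.79, 1.15 and 1.9 CPM under IAA and 4.66, 7.5 and 6.9 CPM under BAP+IAA on day 10, at least 25.5-fold and at least 100.0-fold above mock. MA_78766g0010 had 7.01, 6.03 and 7.67 CPM under IAA and 29.8, 27.9 and 63.1 CPM under BAP+IAA on day 15, a log2 difference of 2.50 ± 0.31, whereas on day 5 it had 50, 44.7 and 64.5 CPM and 40.1, 26.3 and 41.4 CPM, a difference of -0.60 that was not called. The calls of the 3 genes without annotation stood near the fold threshold, while that of endoglucanase 17 held without any 1 IAA or BAP+IAA library (log2 between 1.41 and 1.88). With the fold then under the threshold and adjusted P values still under 0.01, the call of MA_5982388g0010 was lost without BAP+IAA day 5 replicate 3, IAA day 10 replicate 2, BAP+IAA day 10 replicate 2 or IAA day 15 replicate 1 (log2 0.96, 0.97, 0.99 and 0.89), that of MA_792493g0010 without IAA or BAP+IAA day 15 replicate 3 (0.96 and 0.93), and that of MA_78766g0010 without BAP+IAA day 15 replicate 3 (0.92).

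**Figure D4:**
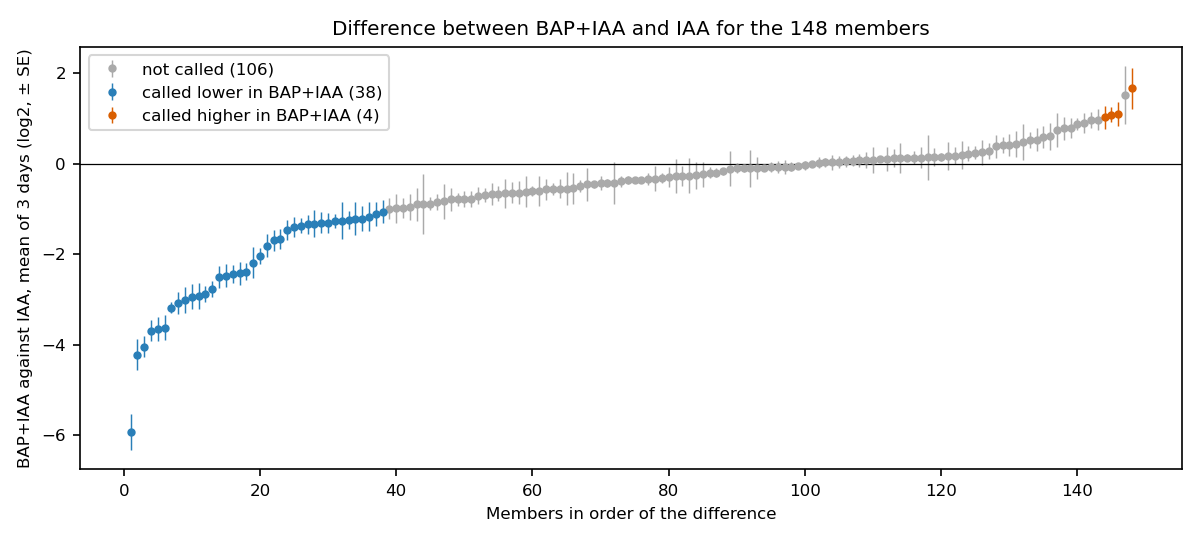
The 148 members are ordered along the x axis by their log2 difference between BAP+IAA and IAA, averaged over the 3 days, which is on the y axis with its standard error from the edgeR fit. The 38 members called lower reach down to -5.93, while the 4 called higher end at 1.67.

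None of the 5 members with the most counts was called between BAP+IAA and IAA on any day, as were 77.4% of all genes on no day. MA_8291837g0010 stood at 1600, 1460 and 1600 CPM under IAA and at 1350, 1900 and 1970 CPM under BAP+IAA on day 5, where mock had 557, 629 and 775 CPM, and its log2 differences were 0.13, -0.02 and 0.03. MA_79460g0010 had 787, 694 and 799 CPM under IAA and 972, 544 and 608 CPM under BAP+IAA on day 5, and differences of -0.14, 0.18 and 0.13. MA_502949g0010 had 597, 623 and 614 CPM and 602, 302 and 374 CPM on that day, and differences of -0.56, -0.19 and -0.28. GDP-mannose 3,5-epimerase 2, described above, was the one with lower values on each day at an adjusted P under 0.05. MA_10428549g0010, without annotation, had 347, 350 and 363 CPM and 236, 212 and 392 CPM on day 5, and differences of -0.37, 0.08 and -0.64, the last with an adjusted P of 0.0108 in edgeR. Among the first 10 by the rule, MA_8757791g0010, MA_42031g0010 and MA_7737733g0010 were called lower over the 3 days, with log2 differences of -1.24 ± 0.19, -1.21 ± 0.27 and -1.10 ± 0.27, and MA_963g0010, at -0.27 ± 0.37, was not. The call of MA_7737733g0010 was lost without BAP+IAA day 15 replicate 2, at -0.97.

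More members had a called change over time in the response to IAA than in that to BAP+IAA, although the difference between these changes was not tested. The changes were tested on the libraries that chose the members, so their counts are not independent of the rule. The mean CPM under IAA was highest on day 5 for 76 members, on day 10 for 35 and on day 15 for 37, and under BAP+IAA for 61, 38 and 49. The IAA response, IAA against the mock of the same day, was called different between day 15 and day 5 for 20 members, 16 (10.8%) lower and 4 (2.7%) higher on day 15, while 2.59% and 5.85% of all genes were so. The BAP+IAA response was called different for 4 members, all lower on day 15, beside 1.79% of all genes lower and 1.39% higher. Over the 135 members with mock counts on both days, the median log2 change was -0.52 for the IAA response and -0.21 for the BAP+IAA response. The count of 20 fell to 13 without mock day 5 replicate 1, and the count of 4 fell to 1 or 2 without any mock library of day 5 or 15, BAP+IAA day 5 replicate 3 or BAP+IAA day 15 replicate 1 or 2.

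Examples show how these changes looked. MA_25199g0020 fell from 351, 380 and 336 CPM under IAA on day 5 to 72.3, 28.7 and 25 CPM on day 15, while mock went from 4.44, 11.3 and 11.9 to 18.9, 17.3 and 15.8 CPM. Its IAA response was lower by a log2 change of -4.01 ± 0.57 (adjusted P 2.3e-05, edgeR). Under BAP+IAA it had only 21.3, 49.9 and 39.4 CPM on day 5 and 29.8, 24.7 and 53.6 CPM on day 15. The xyloglucan endotransglucosylase hydrolase MA_11177g0010 fell from 26.6, 17 and 21.7 to 1.6, 3.49 and 2.19 CPM under IAA (log2 change of the response -3.28 ± 0.67). Glutathione peroxidase MA_10430027g0010 went the other way, from 15.4, 16.1 and 16.5 to 40.5, 32.5 and 46 CPM under IAA, a change of 1.33 ± 0.33, and its BAP+IAA response changed by -0.23 ± 0.33.

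**Figure D5:**
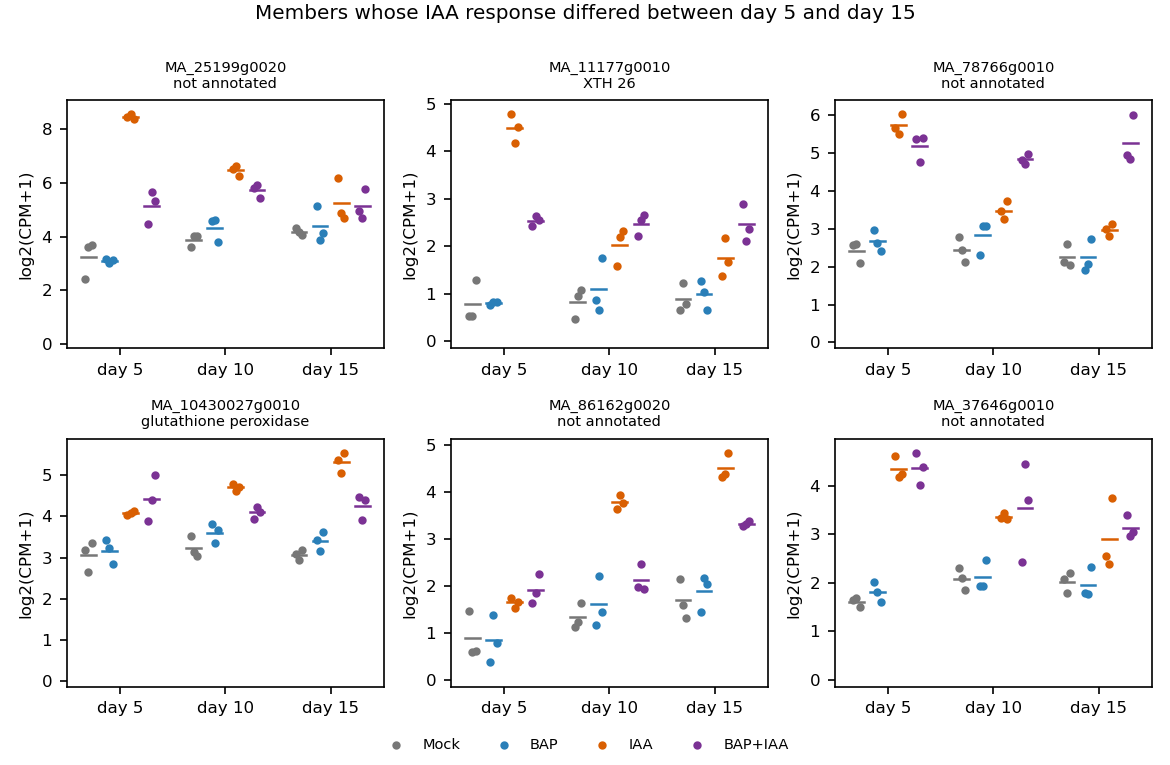
Log2 of CPM plus 1 is shown for every library of 6 members whose IAA response differed between days 5 and 15, in the order mock, BAP, IAA, BAP+IAA within each day, with a line at the mean. MA_25199g0020, the xyloglucan endotransglucosylase hydrolase (XTH 26), MA_78766g0010 and MA_37646g0010 fall with time under IAA, and glutathione peroxidase and MA_86162g0020 rise.

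The mock level itself was called different between day 15 and day 5 for 7 members, 5 higher and 2 lower, that is 3.38% and 1.35%, where 0.772% and 0.318% of all genes were. MA_792493g0010 went from 1.44, 2.63 and 2.63 to 0.175, 0.299 and 0.142 CPM in mock, and MA_32640g0010 from 7.63, 6.07 and 6.43 to 19.1, 17.4 and 19.1 CPM. The count of 7 fell to 1 or 2 without mock day 5 replicate 1 or 2 or mock day 15 replicate 2 or 3. For such members a change of the response between days includes a change of the mock.

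The families to which members belong also held genes outside the chosen set. The counts below include members, which the rule had chosen as high under IAA and BAP+IAA. These are 1 LOB domain gene, 2 GH3 and IAA conjugation genes, 1 expansin and 1 glucanase. MA_290245g0010 and MA_166764g0010 are among the genes of their families called higher under IAA and lower in BAP+IAA than in IAA. Endoglucanase 17 is among the glucanases called higher in BAP+IAA than in IAA. The family annotations came from the study's graft tables of differentially expressed genes and from its gene lists. These were not chosen on the hormone libraries, but they cover only part of each family. The shares of all genes are therefore not a matched background. Over the mean of days, 11.2% of all genes were called higher and 9.59% lower than mock under IAA, and 11.8% and 12.4% under BAP+IAA. Of 15 LOB domain genes tested, 9 were called higher than mock under IAA and 3 were called lower. In BAP+IAA against IAA, 9 of them were called lower and 3 higher, beside 9.08% and 5.88% of all genes, with a median log2 difference of -1.15. Of 6 GH3 and IAA conjugation genes tested, 4 were called higher under IAA and 6 under BAP+IAA, the 2 members among them. The 1 called lower in BAP+IAA than in IAA was the member MA_13253g0010. Of 11 expansins, 5 were called higher and 3 lower under IAA, 6 higher and 1 lower under BAP+IAA, and 1 was called higher and 3 lower in BAP+IAA than in IAA. On the lists given by the study, 13 of 23 beta-1,4-glucanases were called higher and 1 lower under IAA, 9 higher and 6 lower under BAP+IAA, and 11 lower and 3 higher in BAP+IAA than in IAA, where 9.08% and 5.88% of all genes were. The lists held few members: 1 glucanase, 1 of 55 pectin methyl esterases tested, 2 of 61 graft transcription factors, which the study chose on graft libraries, and no laccase or pectate and pectin lyase.

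Membership rested on fixed limits. The members with the smallest values inside the limit of 0.7 were MA_837745g0010 at 0.701, MA_86162g0020 at 0.702 and MA_7351645g0010 at 0.705, and just outside were MA_39982g0010 at 0.6996, MA_10431970g0010 at 0.695 and the GH3 gene MA_10178158g0010 at 0.695. The largest BAP values inside the limit of 0.5 were 0.498 for MA_754361g0010, 0.496 for MA_10434262g0010 and 0.496 for MA_837745g0010, and the nearest outside were 0.503 for MA_99127g0010, 0.505 for MA_10430573g0010 and 0.506 for MA_71275g0010. With library sizes scaled by TMM, 130 of the 148 were still chosen among 163 genes, and with 0.5 added in place of 1, 100 were still chosen among 141. With 1 library left out, between 123 and 146 were still chosen, fewest without mock day 15 replicate 3.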

How the data were processed

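Poly(A)-enriched RNA of the treated hypocotyl was sequenced in 36 libraries. Ribosomal reads were removed by the authors (SortMeRNA), the rest were trimmed (fastp) and mapped with STAR to version 1 of the P. abies genome, and HTSeq assigned them to genes on the reverse strand. The treatment of reads with several alignments is not given in the sources used here. The deposited values are whole-number counts per gene, not normalized. The authors used DESeq2 for their own calls, which were not used here. The members and the lists were chosen with earlier results of these data known. CPM per library were computed from these counts and the column sums, as the rule asks, and no column was left without a sample (0 of 36).

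Counts were tested in R 4.3.3 with edgeR 4.0.16 (filterByExpr, TMM, robust quasi-likelihood fit with a mean for each of 12 groups, 24 residual degrees of freedom). Fold changes come from this fit, tests are two-sided, and P values were adjusted over 38732 genes with the Benjamini-Hochberg method. SE is the absolute log2 difference divided by the square root of F. TMM factors lay between 0.952 and 1.07 and the common biological coefficient of variation was 20.9%. The fit was tested on simulated data for BAP+IAA against IAA on day 5 alone, with changes put into genes above a limit on mean CPM. That simulation did not cover changes between days or mock groups without counts. With 3 libraries per group, differences under the fold threshold are less firmly measured, most of all for genes of few counts, and floors of 3 counts cover counting error only. No 2 replicates agreed within sampling noise (lowest chi-square per degree of freedom 7.31).

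Whether equal replicate numbers pair the libraries was checked by the correlation of their deviations from the group means. For IAA and BAP+IAA it was 0.010, 0.016 and 0.084 on day 5, 0.162, 0.091 and 0.086 on day 10 and 0.147, 0.107 and 0.101 on day 15. Only day 15 reached a limit of 0.1 for every pair, from the data and not the labels. The library of the same number was the best match for every replicate on days 10 and 15. On day 5 this held for replicates 1 and 3 but not for replicate 2. Between mock day 5 and mock day 15 the correlation was 0.168, 0.163 and 0.029, and the same number was the best match for every replicate. The main fit had no block for the replicate number.

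Named were the first 10 members by the rule, those on lists of the study or in auxin, LOB domain, expansin, xyloglucan, cell cycle or transcription factor families, the 5 most below and above 0 in BAP+IAA against IAA among called, the 3 largest called changes between days in each direction, the 5 with the highest CPM, and those at the limits of the rule. Other annotated members were named after their values were seen, and the grouping by role was made then too. Annotations are the descriptions given with gene IDs in supplementary tables of the study, which were held here in part, so members without one may be described elsewhere. Sequences, lengths and coordinates were not analysed here. Levels of different genes were set side by side without a test or a correction for length. Alternatives were RLE factors, DESeq2 1.42.0, all genes with a count, a stricter adjusted P of 0.01, a block for the replicate number, no fold threshold, each library left out in turn and, for the rule, TMM scaling and a pseudocount of 0.5.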

Additional observations from a re-analysis of the deposited data

Results flagged for a closer look

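The IAA response of 20 members was called different between day 15 and day 5 (edgeR, log2 change of the response). This tested the difference between the days on the libraries that chose the members. Lower on day 15 were MA_343701g0010 (-4.82), MA_25199g0020 (-4.01), MA_11177g0010 (-3.28), MA_78766g0010 (-2.77), MA_37646g0010 (-2.06) and MA_10428549g0010 (-1.13), and higher were MA_12282g0010 (6.27), MA_86162g0020 (2.04) and MA_10430027g0010 (1.33). The fitted change of MA_12282g0010 rests on mock libraries of day 15 that were all at 0 and is no bound, while its IAA libraries went from 0.835, 1.34 and 1.01 CPM on day 5 to 8.73, 4.28 and 8.19 CPM on day 15. MA_343701g0010 had 1 of 3 mock libraries above 0 on day 5. MA_78766g0010 fell from 50, 44.7 and 64.5 CPM under IAA on day 5 to 7.01, 6.03 and 7.67 CPM on day 15, whereas under BAP+IAA it had 40.1, 26.3 and 41.4 CPM and then 29.8, 27.9 and 63.1 CPM, with a change of its BAP+IAA response of 0.32 that was not called.

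The BAP+IAA response of 4 members was called different between these days, lower on day 15 in each: MA_10435051g0010 (-3.70), MA_37646g0010 (-1.97), MA_32640g0010 (-1.63) and MA_10428549g0010 (-1.40). MA_37646g0010 and MA_10428549g0010 were called in both responses. For MA_32640g0010 the mock rose from between 6.07 and 7.63 CPM to between 17.4 and 19.1 CPM, while BAP+IAA lay between 36 and 56.3 CPM on day 5 and between 29.3 and 47.8 CPM on day 15. Whether the change of the IAA response differed from that of the BAP+IAA response was not tested for these genes.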

How the results depend on the processing

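The members called between BAP+IAA and IAA numbered 34, 49, 41 and 42 on day 5, 10, 15 and over the 3 days. They stayed within 1.5 times of these under RLE factors, DESeq2, no low-count filter, the stricter P and each library left out. With 1 library left out they were 29 to 32, 46 to 51, 33 to 40 and 41 to 48, always below the full count on days 5 and 15. Without a fold threshold the count over the 3 days was 78, of them 67 lower. The counts for time were less firm. The 20 called changes of the IAA response became 11 at an adjusted P below 0.01 and 13 to 19 with 1 library left out, fewest without mock day 5 replicate 1. The 4 changes of the BAP+IAA response became 1 at an adjusted P below 0.01, 7 with DESeq2 and 1 without the low-count filter. They became 1 to 4 with 1 library left out: 1 without any mock library of day 5, without mock day 15 replicate 3 or without BAP+IAA day 5 replicate 3, and 2 without mock day 15 replicate 1 or 2 or BAP+IAA day 15 replicate 1 or 2. The 7 members called between mock day 15 and day 5 became 1 at an adjusted P below 0.01 and 1 to 5 with 1 library left out: 1 without mock day 15 replicate 2, and 2 without mock day 5 replicate 1 or 2 or mock day 15 replicate 3. The cause was not tested. The number of members still chosen lay between 123 and 146 with 1 library left out. RLE factors moved the median of all genes by under 0.1.

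With the replicate number as a block, the 7 mock calls became 11, and no other count of members moved by over 1.5 times. For the 43 named genes over the 3 days, 933 of 946 alternative values kept the result, called or not, 8 lost the call and 5 gained it. No gene called in the fit described above turned its sign, and turned signs were not counted for genes without a call. MA_5982388g0010, MA_792493g0010 and MA_78766g0010, called higher, fell to between 0.89 and 0.99 without single libraries of IAA or BAP+IAA, among them BAP+IAA day 15 replicate 3 for the last 2.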

Other observations

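The ratio between members was looked at after their values were seen. Among 128 members with at least 10 counts in each of the 18 libraries with IAA, 8128 pairs were compared by the ratio of their counts. MA_8757791g0010, without annotation, and TIFY 10a (MA_10229741g0010) lie on different scaffolds of the assembly, and their ratio stayed between 0.688 and 1.39, with an SD of 0.275 on the log2 scale, the 56th smallest of these pairs, whereas the genes themselves had SDs of 0.805 and 0.828 over these libraries. The neighbouring genes MA_5587g0010 and MA_5587g0020, both called lower in BAP+IAA than in IAA on each day, had a ratio between 0.432 and 1.68 with an SD of 0.429, the 429th smallest, beside 1.45 and 1.55 for the genes themselves. Whether such pairs are copies that share reads was not tested.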
